A study of Sus scrofa with 8 samples.

Results

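The genes described here are 10 that shape the extracellular matrix of fat: the matrix metalloproteinases MMP2, MMP9 and MMP14, their tissue inhibitors TIMP1, TIMP2 and TIMP3, and the matrix-associated glycoproteins SPARC, THBS1, FN1 and POSTN. They were taken as every probe set of the array annotated with exactly 1 of these symbols, which gave 22 probe sets for 10 genes, of 23999 probe sets that are no control and 6765 genes named by a single symbol. Of the 22 probe sets, 16 were bright enough on average to be tested. The 6 that were not are 2 for THBS1, 2 for FN1 and 1 each for TIMP3 and SPARC. Each gene had at least 1 tested probe set.

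Total RNA came from backfat, the subcutaneous fat of the back, of KNP pigs aged 7 months and YS pigs aged 6 months kept under the same conditions, with 4 samples per breed. YS is written as Yorkshire in 1 label, while KNP is given only as letters. Each sample was hybridised to 1 Affymetrix GeneChip Porcine Genome Array. Breed and age cannot be told apart. No label states that the samples came from separate animals, nor their sex, so SDs and p-values describe the spread between these samples only.

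Matrix metalloproteinases are zinc enzymes, made as inactive precursors, that cut collagens and other matrix proteins. TIMPs bind their active site and block it. Matricellular proteins such as SPARC, thrombospondin and periostin sit in the matrix without bearing much load and change how cells attach and respond to growth factors. In adipose tissue this system is known for remodelling the mesh around fat cells as they enlarge, and much of it is made by stromal cells rather than by the fat cells themselves.

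Every level below is log2(signal + 16) on 1 array, and every difference is the KNP mean minus the YS mean on that scale, which understates changes of dim probe sets. Levels of different probe sets are not compared, because each probe set binds with its own strength. The array carries 23 controls that match no pig RNA, and the 95th percentile of their signal on an array, called the no-target level, lay between 5.82 and 7.47. The arrays were not of one quality: 3' over 5' signal of the housekeeping controls differed by 5.88 on KNP replicate 1, 5.18 on KNP replicate 2 and 3.04 on YS replicate 4, against 0.79 to 2.30 (log2) on the other 5. All 5 measured adipocyte markers, FABP4, LIPE, PPARG, LEP and ADIPOQ, were above the no-target level on all 8 arrays. Their median around the gene mean was -0.605 on KNP replicate 1, -0.70 on KNP replicate 2 and -0.62 on YS replicate 4. It was 0.09 to 0.50 on the other 5. ADIPOQ was lowest on those 3 arrays, while FABP4 and LEP were highest on KNP replicate 1. The part of fat cell content in the values below was not tested. KNP replicate 2 also carried skeletal muscle RNA: the summed signal of 9 muscle genes reached 74438 in KNP, where the lowest array was at 245, and ran from 330 to 694 in YS. In bulk tissue, fewer cells of a type and less RNA per cell cannot be told apart.

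No probe set of the 10 genes passed the breed comparison. With limma, 0 of 16 had an adjusted p under 0.05, over the 17999 probe sets tested, and 0% of all probe sets did. At an unadjusted p under 0.05 there was 1 of 16, a TIMP3 probe set, where the share over all probe sets was 2.84%. The 4 KNP values lay wholly outside the 4 YS values for 0 of 16, against 1.96% of all probe sets. Signal was higher in KNP for 9 and lower for 7, with a median difference of 0.0037, while over all probe sets 50.1% were lower and the median was -0.0010. The median size of the differences was 0.30, and their median SE was 0.48. The adjusted p was 0.9998 for each of the 16, so it is not repeated for every probe set below.

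**Figure D1:**
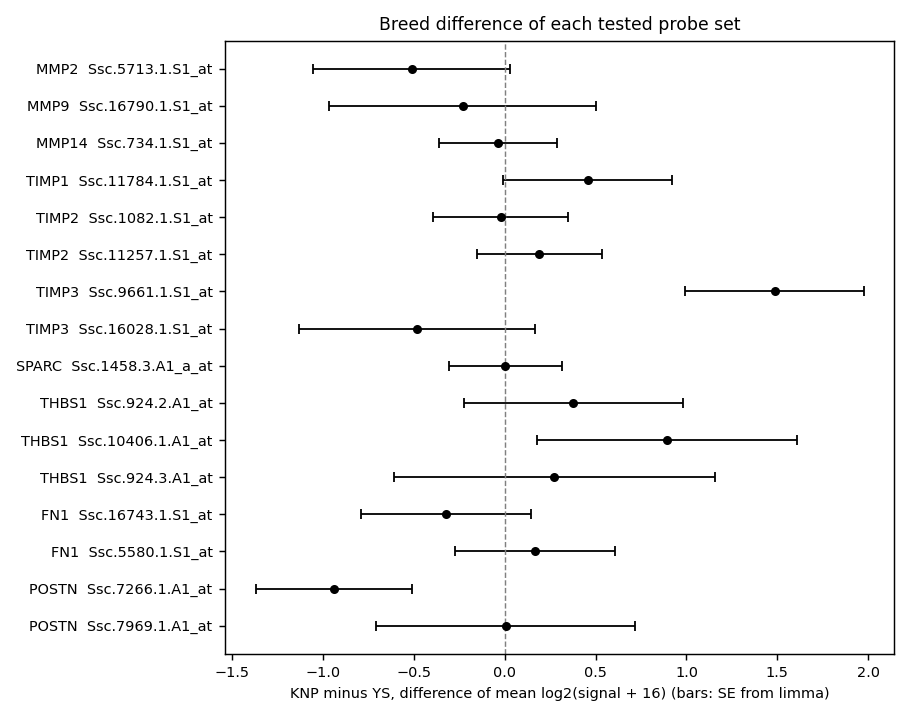
Difference between the KNP and YS means for each of the 16 tested probe sets, in log2(signal + 16), with bars for the SE from limma. Most bars cross 0; the TIMP3 probe set Ssc.9661.1.S1_at lies farthest to the right at 1.49 and the POSTN probe set Ssc.7266.1.A1_at farthest to the left at -0.94.

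Among the proteases, MMP2, the gelatinase that cuts denatured collagen and basement membrane collagen, was bright on every array. Its level was 10.06, 11.89, 11.95 and 11.53 on KNP replicates 1 to 4, against 12.03, 12.32, 12.52 and 10.61 on YS replicates 1 to 4. KNP replicate 1 and YS replicate 4 each stood more than 1 below the other arrays of their breed, and apart from YS replicate 4 every YS value was above every KNP value. The means were 11.36 ± 0.89 in KNP, against 11.87 ± 0.87 in YS (SD over 4 arrays), a difference of -0.51 ± 0.54 (SE). It was -0.93 without YS replicate 4 (adjusted p = 0.958 in limma) and -0.08 without KNP replicate 1, so these 2 arrays set its size.

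MMP14, the membrane-anchored protease that activates MMP2 at the cell surface, differed least of the 3. Its levels were 8.21, 7.88, 8.47 and 8.44 in KNP, against 8.32, 7.50, 8.58 and 8.74 in YS. The breeds overlapped fully, and replicate 2 was the lowest in both. The difference was -0.037 ± 0.32 (SE), and its sign turned with array weights (0.24) and when KNP replicates 1 and 2 and YS replicate 4 were left out together (0.32).

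MMP9, the other gelatinase, which is stored in neutrophil granules and made by macrophages, was dim and scattered. Its levels were 8.54, 4.99, 7.29 and 5.89 in KNP, against 6.91, 5.90, 7.03 and 7.81 in YS, above the no-target level on 2 KNP and 4 YS arrays. The highest array of each breed was KNP replicate 1 and YS replicate 4, and the KNP arrays alone spanned more than the distance between the breeds. The difference was -0.23 ± 0.74 (SE), and it was 0.33 without KNP replicate 2. Of 4 measured neutrophil markers 2 were higher and 2 lower in KNP, 0 were above the no-target level on all 8 arrays, and their summed signal was 672 to 973 in KNP and 354 to 739 in YS. Their median around the gene mean was 0.76 on KNP replicate 1 and 0.06 on YS replicate 4. Of 4 measured macrophage markers 2 were higher and 2 lower in KNP, and their median was -0.44 and -0.30 on those arrays. The summed macrophage signal was 1284 to 3213 in KNP and 1934 to 3270 in YS. Of 2 measured keratinocyte markers both were higher in KNP. Their median around the gene mean was largest, as MMP9 was, on KNP replicate 1 (1.63) and YS replicate 4 (1.14). These 2 arrays were the highest of their breed for 38% and 47.3% of all tested probe sets. KRT1, 1 of the 2 markers, was above the no-target level on 1 KNP and 1 YS array and was too dim to be tested. The summed signal of the keratinocyte markers was 357 to 1127 in KNP and 330 to 773 in YS. The part of these cell types in the MMP9 values was not tested.

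**Figure D2:**
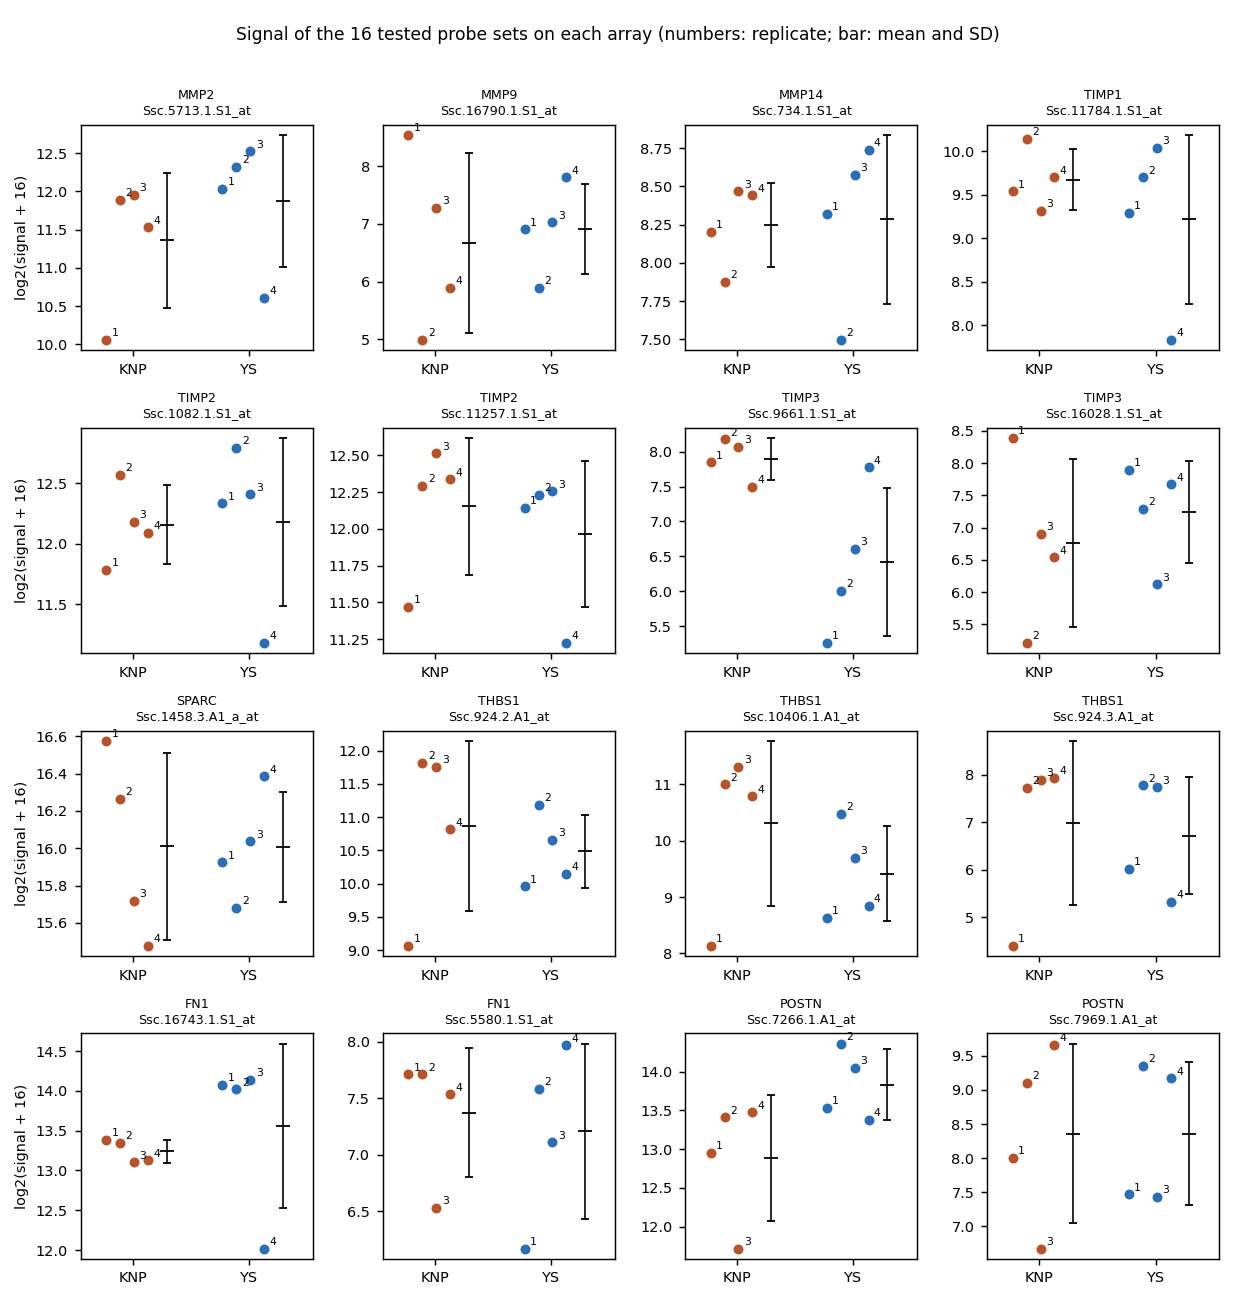
Level, in log2(signal + 16), of the 16 tested probe sets on each array, with KNP on the left and YS on the right of every panel; numbers give the replicate, and the black bar is the mean and SD of 4 arrays. Values overlap between the breeds in all 16 panels, and KNP replicate 1 or YS replicate 4 stands apart from the rest of its breed in MMP2, TIMP2, THBS1 and FN1.

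Of the inhibitors, TIMP1, a secreted inhibitor of most soluble metalloproteinases, had levels of 9.54, 10.14, 9.31 and 9.70 in KNP, against 9.29, 9.70, 10.03 and 7.83 in YS. YS replicate 4 was the lowest of all, and the other 7 interleaved. The means were 9.67 ± 0.35 in KNP, against 9.21 ± 0.97 in YS (SD over 4 arrays), a difference of 0.46 ± 0.46 (SE). Without YS replicate 4 it was -0.0035, so that array alone gave the difference.

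TIMP2, which inhibits MMP2 and also bridges it to MMP14 for activation, was represented by a pair of bright probe sets. The first, Ssc.1082.1.S1_at, was at 11.78, 12.57, 12.18 and 12.09 in KNP, against 12.33, 12.80, 12.41 and 11.18 in YS. The second, Ssc.11257.1.S1_at, was at 11.47, 12.29, 12.52 and 12.34 in KNP, against 12.14, 12.23, 12.26 and 11.22 in YS. Within their breeds both were lowest on KNP replicate 1 and on YS replicate 4, as MMP2 was. Their breed differences were -0.023 ± 0.37 and 0.19 ± 0.34 (SE), both smaller than the SD within either breed.

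TIMP3, the inhibitor that stays bound to the matrix and also blocks the shedding protease ADAM17, gave the largest difference of the 16 and the most spread within-array difference between its probe sets. Ssc.9661.1.S1_at was at 7.85, 8.18, 8.07 and 7.50 in KNP, against 5.26, 6.01, 6.61 and 7.77 in YS. The 4 KNP arrays lay close together, 3 YS arrays lay below all of them, and YS replicate 4 fell inside their range. The means were 7.90 ± 0.30 in KNP, against 6.41 ± 1.06 in YS (SD over 4 arrays), a difference of 1.49 ± 0.49 (SE), with an unadjusted p of 0.0141 and an adjusted p of 0.9998 in limma. YS replicate 1 was under the no-target level and YS replicates 2 and 3 were just above it. YS replicate 4, at 7.77, was also close to the no-target level of that array, 7.47. The YS signal was thus near the limit of what the array measured. The size of the difference therefore depends on the pseudocount, and was 1.75 with a pseudocount of 1 and 1.04 with 64. It was 1.94 without YS replicate 4 (adjusted p = 0.928 in limma) and 1.10 without YS replicate 1, the range over all arrays left out in turn.

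Ssc.16028.1.S1_at, the second TIMP3 probe set, ran the other way. It was at 8.39, 5.21, 6.90 and 6.54 in KNP, against 7.89, 7.29, 6.12 and 7.67 in YS. KNP replicate 1 was the highest and KNP replicate 2 the lowest of all 8 arrays, so the KNP arrays covered the whole YS range. It was above the no-target level on 2 KNP and 3 YS arrays, and its difference was -0.48 ± 0.65 (SE). Without KNP replicate 2 the difference was 0.034, and without KNP replicate 1 it was -1.02.

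The remaining TIMP3 probe set, Ssc.16028.1.A1_at, shares its cluster number and source sequence with the second and differs in the letter that the manufacturer uses for the orientation of the cluster sequence. It was at 5.68, 6.59, 5.34 and 5.46 in KNP, against 5.29, 6.16, 5.72 and 5.31 in YS. Only YS replicate 2 was above the no-target level, and the probe set was too dim to be tested. Its breed means differed by 0.15.

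**Figure D3:**
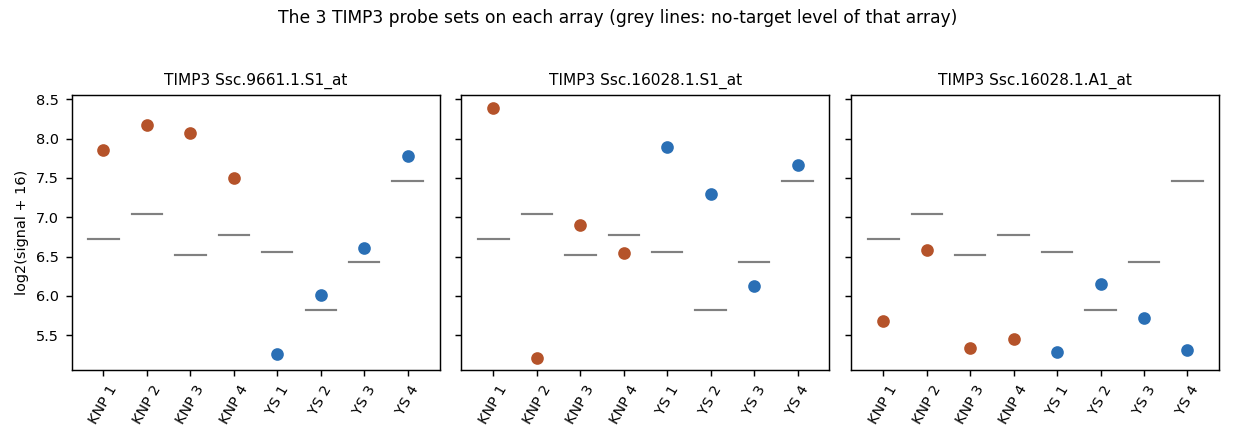
Level, in log2(signal + 16), of the 3 TIMP3 probe sets on each array, KNP on the left and YS on the right, with a grey line for the no-target level of that array. In Ssc.9661.1.S1_at all 4 KNP arrays are above their lines and above 3 of the 4 YS arrays; in Ssc.16028.1.S1_at the KNP arrays spread from 5.21 to 8.39; in Ssc.16028.1.A1_at only YS replicate 2 is above its line.

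Whether the TIMP3 probe sets differ in their breed difference was tested on the within-array difference, Ssc.9661.1.S1_at minus Ssc.16028.1.S1_at. It was -0.54, 2.96, 1.17 and 0.96 in KNP, against -2.63, -1.28, 0.49 and 0.11 in YS. KNP replicate 1 was the only KNP array in the YS range, and the shift between the breed means was 1.97 ± 0.85 (SE). The extremes rested on values under the no-target level of their array. On KNP replicate 2, Ssc.16028.1.S1_at was at 5.21 against a level of 7.04. On YS replicate 1, Ssc.9661.1.S1_at was at 5.26 against a level of 6.56. The shift was 1.36 without KNP replicate 2 and 1.37 without YS replicate 1. The same test was fitted to all 3120 pairs of tested probe sets of 1 gene, from 1647 genes. In size the shift exceeded that of 99.6% of all pairs, and its spread over the 8 arrays, an SD of 1.69, exceeded that of 97.1%. TIMP3 had been picked for this disagreement, so its shift and its place among the pairs are a description.

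Of the 7 such pairs within the 10 genes, 0 had an adjusted p under 0.05, as did 0% of all pairs. The differences had opposite signs in 4 of 7 pairs, where 44.3% of all pairs did. Opposite signs were thus common on this array. In the POSTN and TIMP2 pairs 1 probe set had a difference far smaller than its SE, so its sign was not settled. These were 0.0042 ± 0.71 for POSTN and -0.023 ± 0.37 (SE) for TIMP2. The within-array difference of the TIMP2 pair stayed between -0.33 and 0.57, with an SD of 0.30, smaller than for all but 3.97% of pairs, while each TIMP2 probe set alone had an SD of 0.50 or 0.46 over the 8 arrays. The TIMP2 probe sets thus followed each other from array to array. Of the 5 genes with such pairs, the within-array difference was most spread for TIMP3. For FN1 its SD was 1.15, against 0.70 and 0.64 for the probe sets alone. For TIMP3 it was 1.69, against 1.07 and 1.03, so in neither gene did the probe sets follow each other. Both genes had values under the no-target level. Ssc.9661.1.S1_at and the dimmer FN1 probe set were each above it on 4 KNP and 3 YS arrays. Ssc.16028.1.S1_at was above it on 2 KNP and 3 YS arrays. The part of signal near that level in these spreads was not tested.

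**Figure D4:**
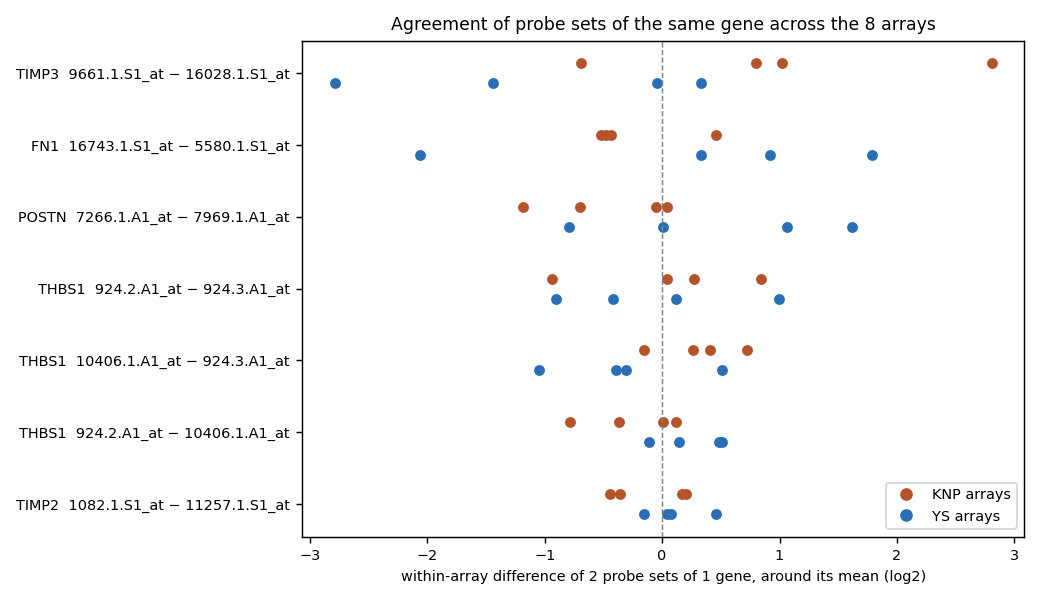
Within-array difference, in log2, between the tested probe sets of 1 gene, centred on its mean over the 8 arrays, with KNP arrays above YS arrays in each row; rows are ordered by spread. The TIMP3 row spreads widest, over 5.59, and the TIMP2 row least, over 0.90.

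Of the matrix glycoproteins, SPARC, which binds collagen and calcium and guides collagen assembly, had nearly equal breed means. Its bright probe set Ssc.1458.3.A1_a_at was at 16.58, 16.27, 15.72 and 15.48 in KNP, against 15.92, 15.68, 16.04 and 16.39 in YS. The 3 highest arrays, KNP replicates 1 and 2 and YS replicate 4, were also those of largest 3'/5' difference. The breed difference was 0.0032 ± 0.31 (SE) in 8 arrays and -0.28 ± 0.25 (SE) without those 3. A dimmer SPARC probe set, Ssc.1458.4.A1_at, was at 4.69 to 5.98 in KNP and 4.80 to 7.29 in YS, above the no-target level on 0 KNP and 2 YS arrays, and was not tested.

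THBS1, thrombospondin, which activates latent TGF-beta, restrains vessel growth and is stored in platelets, had 3 tested probe sets that all leaned higher in KNP. Ssc.924.2.A1_at was at 9.07, 11.82, 11.76 and 10.82 in KNP, against 9.96, 11.19, 10.66 and 10.15 in YS. Ssc.10406.1.A1_at was at 8.14, 11.00, 11.31 and 10.79 in KNP, against 8.63, 10.48, 9.70 and 8.85 in YS. In both, KNP replicate 1 was the lowest of all 8 arrays, and in the second the other 3 KNP arrays were above every YS array.

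The third, Ssc.924.3.A1_at, was at 4.40, 7.72, 7.89 and 7.93 in KNP, against 6.02, 7.78, 7.73 and 5.32 in YS, with KNP replicate 1 lowest again. This probe set was dim, above the no-target level on 3 KNP and 2 YS arrays. The differences were 0.38 ± 0.60, 0.89 ± 0.71 and 0.27 ± 0.88 (SE), and the second alone exceeded its SE. Without KNP replicate 1 they were 0.98, 1.62 and 1.14, with an adjusted p of 0.9989 for each. Without KNP replicate 2 they were 0.059, 0.66 and 0.026, and without KNP replicate 3 they were 0.080, 0.56 and -0.029. The third also turned to -0.041 without KNP replicate 4 and to -0.19 without YS replicate 4, so the sizes rested on single arrays. The first pair followed each other, with a within-array difference between 0.03 and 1.32 and an SD of 0.43, against SDs of 0.94 and 1.21 for the probe sets alone.

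The other THBS1 probe sets were too dim to be tested. Ssc.924.1.A1_at was at 5.22 to 7.06 in KNP and 4.83 to 7.12 in YS, and Ssc.26702.1.A1_at was at 4.22 to 5.46 in KNP and 4.49 to 5.70 in YS. Of 8 arrays, 1 and 0 were above the no-target level. Of 3 measured platelet markers 2 were higher and 1 lower in KNP, and their summed signal was 329 to 632 in KNP and 300 to 872 in YS. The 2 higher in KNP were GP9, by 0.045, and ITGA2B, by 0.57. GP9 was above the no-target level on 4 KNP and 4 YS arrays and ITGA2B on 4 KNP and 2 YS arrays. PPBP, a platelet-specific chemokine, was above it on 0 KNP and 3 YS arrays and was too dim to be tested. The part of platelets in the THBS1 values was not tested.

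FN1, fibronectin, which links matrix fibres to integrins, had 1 bright probe set. Ssc.16743.1.S1_at was at 13.39, 13.35, 13.10 and 13.13 in KNP, against 14.07, 14.02, 14.14 and 12.02 in YS. The KNP arrays lay close together and below YS replicates 1 to 3, which were closer still, while YS replicate 4 was the lowest of all 8. The means were 13.24 ± 0.15 in KNP, against 13.56 ± 1.03 in YS (SD over 4 arrays), a difference of -0.32 ± 0.47 (SE). Without YS replicate 4 it was -0.84 ± 0.23 (SE), with an unadjusted p of 0.00583 and an adjusted p of 0.958 in limma.

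The other tested FN1 probe set, Ssc.5580.1.S1_at, was at 7.71, 7.71, 6.53 and 7.54 in KNP, against 6.17, 7.58, 7.11 and 7.97 in YS. This probe set was dim, above the no-target level on 4 KNP and 3 YS arrays. YS replicate 1 was under that level and KNP replicate 3 was at it. Here YS replicate 4, with a no-target level of 7.47, was the highest array, whereas it was the lowest in the bright probe set. The difference of the dim probe set was 0.17 ± 0.44 (SE), and the shift between the FN1 probe sets, bright minus dim, was -0.49 ± 0.74 (SE). The pair of untested probe sets, Ssc.22199.1.A1_at and Ssc.16743.1.A1_at, were above the no-target level on 1 and 0 KNP arrays and on 0 and 1 YS arrays. The means of the second were 4.79 ± 0.52 in KNP and 6.01 ± 0.77 in YS (SD over 4 arrays), under the no-target level of most arrays, so its breed difference of -1.22 was not read further.

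POSTN, periostin, a secreted protein that binds collagen and fibronectin and is made by fibroblasts, had the largest difference towards lower signal in KNP. Ssc.7266.1.A1_at was at 12.95, 13.41, 11.72 and 13.47 in KNP, against 13.53, 14.36, 14.05 and 13.38 in YS. YS replicate 4 alone reached into the KNP range, and KNP replicate 3 was the lowest of all. The means were 12.89 ± 0.81 in KNP, against 13.83 ± 0.46 in YS (SD over 4 arrays), a difference of -0.94 ± 0.43 (SE), 1.92-fold higher in YS, with an unadjusted p of 0.0556 in limma. It was -0.55 without KNP replicate 3 and -1.38 with KNP replicates 1 and 2 and YS replicate 4 left out together.

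Ssc.7969.1.A1_at, the dimmer POSTN probe set, was at 8.00, 9.10, 6.67 and 9.66 in KNP, against 7.47, 9.35, 7.43 and 9.17 in YS. Its breed difference was 0.0042 ± 0.71 (SE). KNP replicate 3 was lowest and replicate 4 highest within KNP in both POSTN probe sets, but YS replicate 3 was high in the first and low in the second. The shift between them, bright minus dim, was -0.95 ± 0.58 (SE). Of 6 measured fibroblast markers 1 was higher and 5 were lower in KNP, with a summed signal of 26788 to 46134 in KNP and 28039 to 53573 in YS, and their part in the FN1 and POSTN values was not tested.

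For 10 of the 16 probe sets the breeds overlapped whichever array was left out. With each array left out in turn, the count of the 16 probe sets without overlap between breeds was 4 without YS replicate 4, where 6.33% of all probe sets had none. These were MMP2, FN1 and POSTN, lower in KNP, and TIMP3, higher in KNP, with Ssc.16743.1.S1_at for FN1, Ssc.7266.1.A1_at for POSTN and Ssc.9661.1.S1_at for TIMP3. It was 2 without KNP replicate 1, the TIMP2 probe set Ssc.11257.1.S1_at and the THBS1 probe set Ssc.10406.1.A1_at, both higher in KNP, against 5.71% of all. It was 1 without KNP replicate 4, the TIMP3 probe set, against 4.93%, and 0 without any of the other 5 arrays, against 3.93% without KNP replicate 2, 3.52% without KNP replicate 3, and 3.57%, 3.39% and 3.48% without YS replicates 1, 2 and 3. No probe set of the 10 genes had an adjusted p under 0.05 in any of these fits. YS replicate 4, the array of brightest median signal at 263, was the lowest or highest of its breed for 12 of the 16 probe sets and for 74.2% of all tested, and KNP replicate 1 for 10 of the 16 and 63.5% of all tested, so the shares over the 16 were near those over all.

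**Figure D5:**
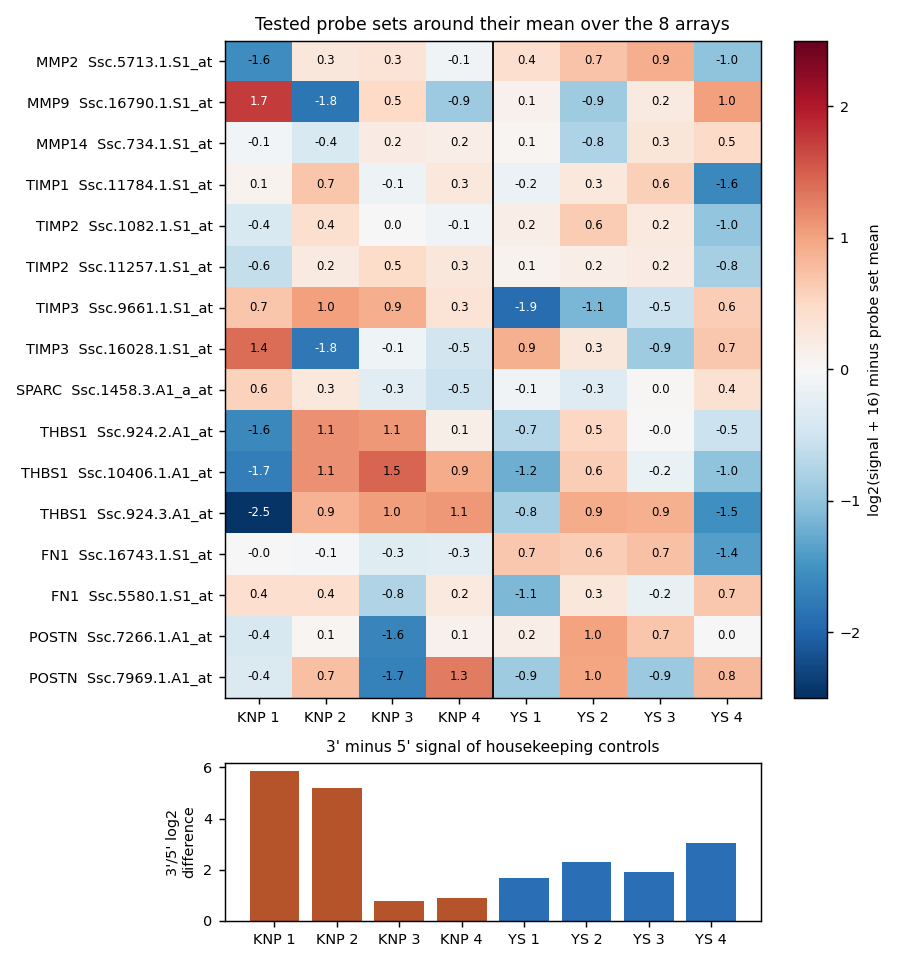
Upper panel: log2(signal + 16) of the 16 tested probe sets on each array, minus the probe set's mean over the 8 arrays, KNP left of the line and YS right. Lower panel: the 3' minus 5' log2 signal of housekeeping controls, which is largest on KNP replicates 1 and 2 and YS replicate 4; MMP2 and both TIMP2 probe sets are low on KNP replicate 1 and YS replicate 4 but not on KNP replicate 2.

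Other genes of the same system were taken from lists and represented by the brightest probe set of each gene. Of 41 tested genes in the 5 lists, 0 passed in either direction with limma, as did 0% of all named genes, and 2 had an unadjusted p under 0.05, where the share over all named genes was 2.35%. Further metalloproteinases were hardly measured: of 18 symbols 5 were on the array and 1 was bright enough to test. This was MMP3, a stromelysin that cuts proteoglycans and activates other metalloproteinases, at 8.32, 5.12, 7.47 and 5.96 in KNP, against 6.23, 6.55, 6.24 and 8.34 in YS. Its highest arrays, KNP replicate 1 and YS replicate 4, were the highest of their breed for 38% and 47.3% of all probe sets. Its difference was -0.12 ± 0.74 (SE), and it was above the no-target level on 2 KNP and 2 YS arrays. The 3 other MMP3 probe sets, too dim to be tested, gave differences of 0.32, 0.40 and 0.15.

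Of 6 tested ADAM and ADAMTS proteases 3 were higher and 3 lower in KNP, with a median difference of 0.17. ADAM15 averaged 8.47 ± 0.96 in KNP, against 7.17 ± 0.94 in YS (SD over 4 arrays). It was above the no-target level on 4 KNP and 3 YS arrays, with YS replicate 4 under it. ADAMTS1, which cleaves versican and aggrecan, averaged 12.29 ± 1.09 in KNP, against 11.61 ± 0.46 in YS, and its second probe set leaned the same way, by 0.72. As with THBS1, KNP replicate 1 was the lowest of all arrays in both ADAMTS1 probe sets.

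The list of the plasminogen system and other protease control was split evenly, with 6 higher and 6 lower in KNP and a median of -0.06. Alpha-2-macroglobulin (A2M), a serum protein that traps proteases, was at 10.10, 9.05, 10.18 and 8.92 in KNP, against 6.16, 8.82, 6.56 and 8.95 in YS. Only YS replicate 4 overlapped with KNP, and the difference was 1.94 ± 0.68 (SE), with an unadjusted p of 0.0194 in limma. Its other tested probe sets gave 1.14 ± 1.06 and -0.45 ± 0.56 (SE), so A2M, like TIMP3, had probe sets of opposite sign. The first of these was above the no-target level on 2 KNP and 1 YS arrays and the second on 3 and 3. HPSE, heparanase, had 0.95 ± 0.57 (SE) by its brightest probe set and -0.99 ± 0.66 (SE) by another. Both were dim, above the no-target level on 3 KNP and 2 YS arrays and on 2 KNP and 3 YS arrays.

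The list of matricellular proteins beyond the 10 genes also held other matrix proteins, such as NID2, TNXB and FBLN1. Of its 12 tested genes, 9 were lower and 3 higher in KNP, with a median difference of -0.33. Of all 6006 named genes 48.2% were lower, and the median was 0.013. Tenascin C (TNC) averaged 6.11 ± 0.84 in KNP, against 7.23 ± 0.95 in YS (SD over 4 arrays). It exceeded the no-target level on 1 KNP and 3 YS arrays. CYR61, a matricellular protein induced by growth factors and stretch, averaged 11.05 ± 0.82 in KNP, against 10.18 ± 0.49 in YS. Neither passed the test.

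Receptors for matrix proteins were split 5 to 5, with a median of -0.03. DDR1, a tyrosine kinase receptor for collagen, averaged 8.42 ± 0.39 in KNP, against 6.99 ± 1.19 in YS (SD over 4 arrays), a difference of 1.43 ± 0.55 (SE) with an unadjusted p of 0.0278 and an adjusted p of 0.9998 in limma. DDR1 was above the no-target level on 4 KNP and 3 YS arrays, with YS replicate 4 under that level and YS replicate 1 at it. CD47, a receptor for thrombospondin, averaged 10.40 ± 0.59 in KNP, against 10.96 ± 0.43 in YS. Its other probe sets leaned the same way, by -0.11 and -0.20.

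The genes whose levels ran most like those of the members over the 8 arrays were found by Pearson's r among 6005 other named genes. For SPARC they were GAPDH (0.984), RPS18 (0.974) and ACR (0.971), and 64 genes had r above 0.9. For the TIMP3 probe set Ssc.9661.1.S1_at they were TBC1D17 (0.967), SPATA5 (0.958) and TCF7L1 (0.938), with 14 genes above 0.9. For Ssc.16028.1.S1_at they were LOC100621778 (0.978), EIF2B1 (0.954) and NAE1 (0.943), with 22 genes above 0.9. The TIMP3 probe sets did not follow each other over the 8 arrays, so their lists could share no gene, and that adds no further observation. Of the genes most like SPARC, the GAPDH probe set was above the no-target level on 2 KNP and 4 YS arrays. ACR was above it on 1 KNP and 2 YS arrays, so both were dim, while RPS18 was above it on all 8. The r values are a description, since the 8 points share array quality and scaling and so many genes were searched.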

How the data were processed

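Per the labels' protocols, total RNA was biotin-labelled and hybridised to a 1-colour Affymetrix array following the manufacturer. The authors deposited an intensity for each of 24123 probe sets on each array, with no detection calls. The summarisation of probes: not given in the sources used here. Intensity means trimmed by 2% at each end were 500.1 on every array, a scaling read from the values and kept. Values were taken as log2(signal + 16). Then 124 control probe sets were removed, and of the others the 25% dimmest by their mean of 8 arrays. Gene names came from the platform annotation, in which 10069 probe sets had 1 symbol, 198 several and 13732 none. No positions or sequences of probe sets were used here.

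The breed comparison used limma 3.58.1 (R 4.3.3; lmFit, then eBayes; two-sided, Benjamini-Hochberg over all probe sets tested, threshold 0.05). Within-array differences of same-gene probe sets were fitted likewise over 3120 pairs. Both fits were tested on simulated data. All probe sets of the 10 genes are named. From each list, the 2 genes of smallest p are named where none passed, and others that are named were chosen after their values were seen. Genes most like a member were the 3 of highest r. The members, lists, tests and alternatives were chosen with earlier results of these data known. Alternatives were other filters, normalizations, pseudocounts, variance models (statmod 1.5.0 loaded), array weights, the replicate number as a block, a covariate for the 3'/5' difference, and arrays left out. That difference was the mean over actin, GAPDH and elongation factor controls. The replicate numbers did not pair the samples: same-numbered arrays correlated in their deviations from breed means at -0.175, 0.0219, 0.125 and -0.188.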

Additional observations from a re-analysis of the deposited data

Results flagged for a closer look

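In each breed, the highest or lowest of the 4 arrays was set against the other 3 for all 22 probe sets, 44 groups in all, by Dixon's criterion. It picked 1 array in each of 5 groups, where chance picks about 1 group in 20. The groups share arrays, and some share a gene, so they are not independent and the count is a description. YS replicate 4 was far below the others for the bright FN1 probe set Ssc.16743.1.S1_at, at 12.02 against 14.02 to 14.14, and for the TIMP2 probe set Ssc.11257.1.S1_at, at 11.22 against 12.14 to 12.26. KNP replicate 1 was far below the others for 2 THBS1 probe sets, at 8.138 against 10.79 to 11.31 in Ssc.10406.1.A1_at and at 4.397 against 7.724 to 7.927 in Ssc.924.3.A1_at. The value of 4.397 was under the no-target level of that array, 6.72. KNP replicate 3 was low for the dim FN1 probe set Ssc.5580.1.S1_at, at 6.531 against 7.535 to 7.713. That value was at the no-target level of the array, 6.53. YS replicate 4 and KNP replicate 1 were among the 3 arrays of largest 3'/5' difference, and KNP replicate 3 had the smallest, 0.79. The part of RNA quality in these values was not tested.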

How the results depend on the processing

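No probe set passed the threshold in any of 21 alternatives and no same-gene pair in any of 19, and this held for the 16 probe sets and for the 6 pairs that include a gene's brightest probe set. The smallest adjusted p of any probe set was 0.0596, with trend and robust variance. Unadjusted p-values under 0.05 numbered 511, rising to 884 without YS replicate 4, 784 without KNP replicate 1, 975 with array weights and 1516 without the 3 arrays named for their 3'/5' difference. With the replicate number as a block, 0 probe sets passed and 509 had an unadjusted p under 0.05, and no call changed. Of the 16 probe sets, 6 kept their direction in all alternatives run on them, and of the 6 pairs 4 did.

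Several differences turned sign, that of TIMP1 (0.46) the largest among them outside the arrays left out in turn, and the cause was not tested. With quantile normalization SPARC was at -0.12 and the dimmer POSTN probe set at -0.080, and with a pseudocount of 1 that POSTN probe set was at -0.0090. With array weights MMP14 was at 0.24 and SPARC at -0.0495. With the 3'/5' covariate MMP14 was at 0.030, the TIMP2 probe set Ssc.1082.1.S1_at at 0.019, SPARC at -0.17, the dimmer FN1 probe set at -0.019, the dimmer POSTN probe set at -0.12 and the THBS1 pair Ssc.924.2.A1_at minus Ssc.924.3.A1_at at -0.14. Without the 3 arrays MMP14 was at 0.32, TIMP1 at -0.17, SPARC at -0.28 and that THBS1 pair at -0.048.

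With 1 array left out at a time, the difference ran from -0.85 to 0.33 for MMP9, from -0.30 to 0.12 for MMP14, from -0.0035 to 0.73 for TIMP1, from -0.36 to 0.18 for the TIMP2 probe set Ssc.1082.1.S1_at and from -0.056 to 0.42 for Ssc.11257.1.S1_at. It ran from -1.02 to 0.034 for the TIMP3 probe set Ssc.16028.1.S1_at, from -0.19 to 0.18 for SPARC, from -0.19 to 1.14 for the THBS1 probe set Ssc.924.3.A1_at, from -0.18 to 0.45 for the dimmer FN1 and from -0.43 to 0.57 for the dimmer POSTN probe set. For the pairs it ran from -1.26 to 0.028 for FN1 and from -0.18 to 0.45 for THBS1. The number of arrays, 4 per breed, limits all of these values, and probe sets near the no-target level are limited by signal as well.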
